A study of Mus musculus with 28 samples.

Results

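The SLC22 family of organic ion transporters was followed through 9 genes, Slc22a2, Slc22a4, Slc22a5, Slc22a6, Slc22a7, Slc22a8, Slc22a12, Slc22a19 and Slc22a30, in mouse kidney. The members were taken by gene symbol from the 56748 genes of the count table, and all 9 passed the filter on low counts that left 17573 genes for testing. The kidneys came from mice with 1 of 3 forms of the water channel aquaporin-3 (Aqp3): wild type (WT), a form that mimics acetylated lysine (Q) and a form that mimics the deacetylated state (R). There were 5 male libraries of each form, 5 female libraries of WT and of Q, and 3 female R libraries, which makes 6 groups. No mouse was treated, all were kept in standard housing, and the kidneys were collected 2 to 5 h after lights-on (zeitgeber time), stripped of their capsule and frozen. Age, strain, litter and the exact lysine are not stated in the labels, nor is it stated that each library is a separate animal, so the p-values measure the spread between libraries, which may in part be technical.

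SLC22 proteins move charged small molecules across cell membranes, and the kidney tubule uses them to secrete drugs, toxins and waste and to recover useful solutes. The organic anion transporters OAT1 (Slc22a6) and OAT3 (Slc22a8) sit in the blood-facing membrane of proximal tubule cells and take up anions in exchange for dicarboxylates, and OCT2 (Slc22a2) takes up organic cations there. On the urine-facing side, URAT1 (Slc22a12) recovers urate and OCTN2 (Slc22a5) recovers carnitine. Slc22a19 (OAT5) and Slc22a30 belong to a group of anion transporter genes that rodents have expanded on one chromosome.

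Libraries held 14825417 to 21403804 counts, and levels are given as CPM, the counts of a gene relative to the TMM-scaled total of its library. The targeted gene Aqp3 had group means of 111 to 124 CPM, a level that cannot show which form of the protein a library carried. The 10 proximal tubule markers summed to 15190 to 22480 CPM per library, and none of them was at 0 in any group. Male Q replicate 4 and female Q replicate 5 stood apart with 7.74% and 3.94% of counts from mitochondrial genes, against 9.56% to 12.1% in the other libraries. Female WT replicate 2 held 0.515 CPM of Xist, the RNA that coats an inactive X, where all other females ranged from 214 to 435 CPM, so on this gene it goes against its label. The summed level of 7 Y-linked genes in that library was 4.17 CPM, the lowest of all libraries. It was 8.36 to 30.9 CPM in the other females and 142 to 180 CPM in males. The sex differences of the members called in every genotype are therefore also given without these libraries. Levels, ratios and other results rest on all libraries unless stated.

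Promoter sequence is shown first, because Slc22a30 and Slc22a19, which differed between the sexes, lie in a block of neighbouring Slc22 genes. Some genes of that block, not all of them members, are of similar sequence. Of the 9 members, 8 had an entry in the RefSeq promoter table for GRCm38.p6, an older build than the GRCm39 annotation behind the counts, and Slc22a7 had none. Slc22a19, Slc22a26, Slc22a27, Slc22a28, Slc22a29, Slc22a30, Slc22a8 and Slc22a6 follow each other on chromosome 19 with no other coding gene between them. The 250 bases upstream of the start are printed 5′ to 3′ on the gene's strand. Capitals mark matches, on either strand of the window from 250 bases before to 50 after the start, to 3 motifs. The HNF1 motif is the half-site GTTAAT, any 1 base, and the reverse complement of that half-site, with up to 3 mismatches. The HNF4 direct repeat is AGGTCA, 1 A and AGGTCA again, with up to 3 mismatches. The androgen and glucocorticoid receptor element is AGAACA, any 3 bases and its reverse complement, with up to 2 mismatches. No 2 of the matches found overlap. The first set holds Slc22a30 (chr19:8405106-8405355) and Slc22a28 (chr19:8131983-8132232), whose transcripts were higher in males, and Slc22a29 (chr19:8218901-8219150) and Slc22a19 (chr19:7711311-7711560), whose transcripts were higher in females. All 4 lie on the minus strand. Slc22a28 and Slc22a29 are not among the 9 members, and their promoters were chosen for printing after their values were seen.
Slc22a30: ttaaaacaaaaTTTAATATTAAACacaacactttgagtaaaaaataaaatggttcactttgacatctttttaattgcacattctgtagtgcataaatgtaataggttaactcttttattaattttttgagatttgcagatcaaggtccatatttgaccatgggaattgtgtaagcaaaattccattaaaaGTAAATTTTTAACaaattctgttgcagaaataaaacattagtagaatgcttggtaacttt
Slc22a28: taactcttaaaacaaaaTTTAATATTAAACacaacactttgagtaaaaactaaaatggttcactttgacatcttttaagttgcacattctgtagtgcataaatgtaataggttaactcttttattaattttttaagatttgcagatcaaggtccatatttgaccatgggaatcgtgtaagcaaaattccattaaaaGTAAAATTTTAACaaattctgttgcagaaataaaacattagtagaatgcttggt
Slc22a29: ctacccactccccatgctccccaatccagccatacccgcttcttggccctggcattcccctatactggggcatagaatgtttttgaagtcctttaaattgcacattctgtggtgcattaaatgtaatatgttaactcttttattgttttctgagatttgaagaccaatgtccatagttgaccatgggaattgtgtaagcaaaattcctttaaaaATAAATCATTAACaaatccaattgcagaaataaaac
Slc22a19: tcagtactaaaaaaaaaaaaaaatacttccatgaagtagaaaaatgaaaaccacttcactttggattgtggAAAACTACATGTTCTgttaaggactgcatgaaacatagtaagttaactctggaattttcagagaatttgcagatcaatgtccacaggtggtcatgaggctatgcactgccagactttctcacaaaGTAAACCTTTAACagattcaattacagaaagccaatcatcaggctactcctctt

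Aligned over the window of 300 bases, Slc22a30 and Slc22a28 shared 288 bases (96%), Slc22a30 and Slc22a29 shared 215 (71.7%), and Slc22a30 and Slc22a19 shared 190 (63.3%). The 15 pairs among the 6 genes from Slc22a19 to Slc22a30 shared 147 to 288 bases with a median of 166, and the other 51 pairs of promoters compared shared 118 to 166 with a median of 148. The HNF1 motif had 2 matches in each of Slc22a30 and Slc22a28 and 1 in each of Slc22a29 and Slc22a19. The motif reads the same on both strands, so a match has no direction. The match that lies nearer the start is GTAAATTTTTAAC in Slc22a30, GTAAAATTTTAAC in Slc22a28, ATAAATCATTAAC in Slc22a29 and GTAAACCTTTAAC in Slc22a19. Such a match occurred in 8.33% of the 32851 promoters in the table. Slc22a19 also held the receptor element, as AAAACTACATGTTCT, which 1.84% of promoters held. A TATAAA box, present in 13.6% of promoters, was not found in the windows of these genes or of the other members. Of the other genes of the block, Slc22a26, with no called sex difference, held 1 HNF1 match (GCAAATATTTAAC), and Slc22a27, higher in females, held none. The matches thus occur beside male-high, female-high and uncalled genes, and a match is a stretch of letters and not a shown binding site.

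The second set holds the other 3 members that were higher in males in every genotype: Slc22a6 (chr19:8617746-8617995, plus strand), Slc22a12 (chr19:6543071-6543320, minus strand) and Slc22a2 (chr17:12583939-12584188, plus strand).
Slc22a6: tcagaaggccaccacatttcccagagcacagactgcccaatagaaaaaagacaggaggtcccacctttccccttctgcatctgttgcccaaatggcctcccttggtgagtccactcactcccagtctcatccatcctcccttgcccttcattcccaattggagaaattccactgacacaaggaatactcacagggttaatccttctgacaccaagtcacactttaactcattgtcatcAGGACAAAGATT
Slc22a12: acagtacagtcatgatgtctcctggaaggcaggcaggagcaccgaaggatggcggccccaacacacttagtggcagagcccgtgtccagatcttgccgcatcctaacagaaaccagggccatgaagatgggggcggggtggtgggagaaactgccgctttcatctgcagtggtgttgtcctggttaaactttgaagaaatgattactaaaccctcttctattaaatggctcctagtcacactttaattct
Slc22a2: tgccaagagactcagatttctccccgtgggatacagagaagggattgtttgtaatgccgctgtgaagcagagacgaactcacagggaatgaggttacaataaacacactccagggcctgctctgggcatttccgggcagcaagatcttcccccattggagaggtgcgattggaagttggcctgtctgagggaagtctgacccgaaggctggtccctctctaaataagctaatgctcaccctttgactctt

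Slc22a6 held 1 HNF4 repeat match, AGGACAAAGATTA, whose last base lies just past the stretch printed, and 9.34% of all promoters held such a match. Slc22a12 and Slc22a2 held no match to the 3 motifs, which says only that these letters are not in this window. Slc22a8, the neighbour of Slc22a6, was called slightly higher in females in Q and R but not in WT. It held 1 HNF1 match, GTCAAACATTAGC.

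Sex was the main axis of difference among the members. Slc22a30, Slc22a6, Slc22a12 and Slc22a2 were higher in males and Slc22a19 was higher in females in each of the 3 genotypes, and Slc22a8 was slightly higher in females in Q and R. Called members numbered 5 of 9 in WT (4 higher in males, 1 lower), where 16.5% of all tested genes were called (8.22% higher, 8.31% lower), at an adjusted p under 0.05 in edgeR's quasi-likelihood test. They numbered 6 of 9 in Q, where 23.1% of all genes were called (11.9% higher, 11.2% lower), and 6 of 9 in R, where 14.1% were called (7.07% higher, 7.01% lower), each time with 4 higher and 2 lower in males. The 3 sex contrasts share no library, so each repeats the comparison in other libraries. The same 5 members were called in one direction in all 3, and 9.27% of all genes were (5.23% higher in males, 4.04% lower). For 5 of the 9 members the 15 male and 13 female libraries did not overlap at all, against 5.14% of all genes. The members were chosen with earlier results of these data known, so their counts beside these shares are no test. The median log2 fold change (male against female) of the 9 members was -0.10 in WT, 0.09 in Q and -0.15 in R, beside -0.03, -0.02 and -0.03 over all genes. In whole kidney, fewer cells of a type and less RNA per cell cannot be told apart.

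**Figure D1:**
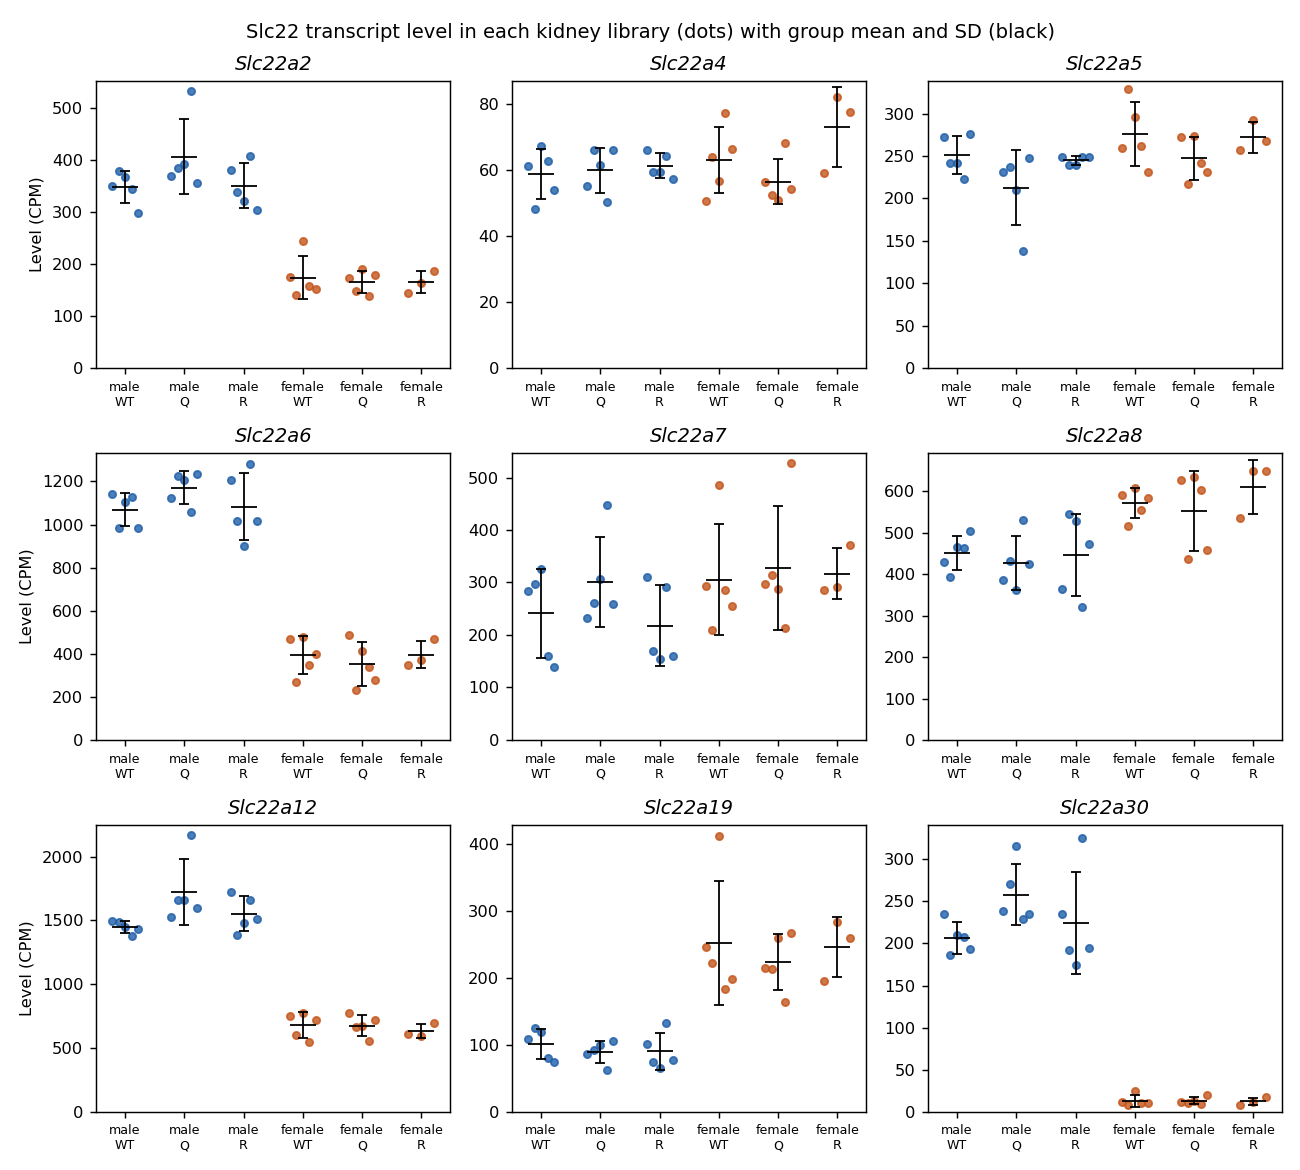
Level of each Slc22 member in CPM (vertical axes, starting at 0) in every library (dots; males blue, females orange), with the group mean and SD in black; groups hold 5 libraries, female R holds 3. The male and female libraries separate fully for Slc22a2, Slc22a6, Slc22a12, Slc22a19 and Slc22a30 and overlap for the other 4 genes.

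**Figure D2:**
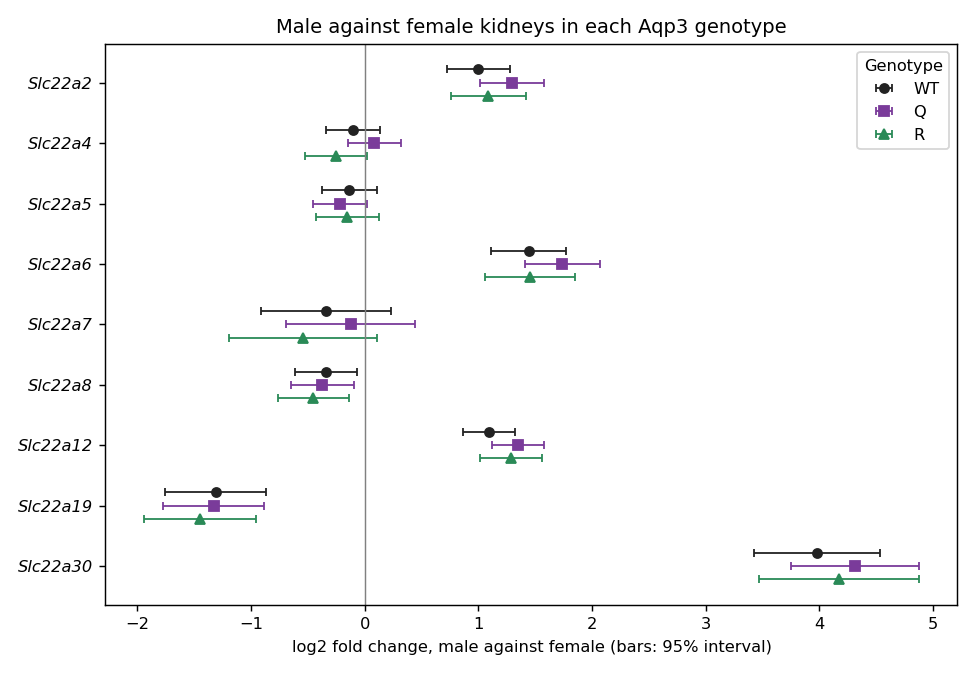
Log2 fold change of males against females (horizontal axis) for the 9 members in WT, Q and R, with bars for the 95% interval from edgeR. Slc22a30 lies between 3.98 and 4.31, Slc22a6, Slc22a12 and Slc22a2 lie between 0.999 and 1.74, and Slc22a19 lies between -1.45 and -1.31.

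Among the basolateral uptake carriers, Slc22a6, which encodes OAT1, had 1141, 984, 1103, 1126 and 986 CPM in the 5 male WT libraries. In female WT it had 470, 268, 479, 348 and 398 CPM. Every male value was more than double every female value. The difference in WT was 2.72-fold, a log2 fold change of 1.44 (SE 0.16, 95% interval 1.12 to 1.77, adjusted p = 3.99e-08). In Q the means were 1170 ± 76.6 CPM in males and 351 ± 102 CPM in females (SD, n = 5 and 5), a log2 fold change of 1.74 (interval 1.41 to 2.07, adjusted p = 7.52e-10). In R they were 1083 ± 155 CPM (n = 5) and 396 ± 62.9 CPM (n = 3), a log2 fold change of 1.45 (interval 1.06 to 1.85, adjusted p = 1.33e-06).

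Slc22a8, which encodes OAT3 and is the next coding gene to Slc22a6, went the other way and by much less. Male WT libraries had 431, 392, 466, 464 and 504 CPM, and female WT libraries had 591, 517, 609, 556 and 583 CPM. The WT groups did not overlap, but over all libraries the highest male value, 546 CPM, exceeded the lowest female value, 438 CPM. The log2 fold change was -0.34 in WT (interval -0.62 to -0.06, adjusted p = 0.0782), which did not pass, -0.37 in Q (interval -0.65 to -0.10, adjusted p = 0.0404) and -0.45 in R (interval -0.77 to -0.14, adjusted p = 0.0418). These 2 calls rest close to the threshold: with DESeq2 size factors the adjusted p was 0.0536 in Q and 0.0516 in R, and leaving out single libraries moved it between 0.00776 and 0.118 in Q and between 0.0185 and 0.164 in R. Without male Q replicate 4 and female Q replicate 5, Slc22a8 was called in WT as well, with a log2 fold change of -0.33 and an adjusted p of 0.038.

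The balance of the 2 anion carriers differed between the sexes. Per kilobase of exon, Slc22a6 stood at 2.55 ± 0.62 times the level of Slc22a8 in males (range 1.67 to 3.92, n = 15) and at 0.64 ± 0.09 times in females (range 0.51 to 0.78, n = 13). The ranges did not touch, so OAT1 mRNA was the more abundant in every male library and OAT3 mRNA in every female library.

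Slc22a2, which encodes the cation carrier OCT2, had 350, 379, 368, 345 and 299 CPM in male WT and 176, 140, 245, 159 and 152 CPM in female WT. All male libraries were above all female libraries. The log2 fold change in WT was 0.999 (SE 0.13, interval 0.72 to 1.28, adjusted p = 1.47e-06). The log2 fold change was 1.30 in Q (interval 1.02 to 1.58, adjusted p = 9e-09) and 1.09 in R (interval 0.76 to 1.42, adjusted p = 8.52e-06). Male Q replicate 4, one of the libraries that stood apart, had the highest value of all, 533 CPM, and without it and female Q replicate 5 the Q difference was 1.22 on the log2 scale.

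Slc22a7, the gene of OAT2, varied widely between libraries of the same group. It had 283, 297, 326, 160 and 139 CPM in male WT, 232, 261, 306, 447 and 259 CPM in male Q and 310, 170, 154, 292 and 160 CPM in male R. Females had 294, 209, 486, 285 and 255 CPM in WT, 297, 315, 288, 214 and 528 CPM in Q and 287, 292 and 372 CPM in R. High and low libraries occurred in both sexes and in each form of Aqp3, and all groups overlapped. No sex contrast passed: the log2 fold change was -0.34 in WT (interval -0.91 to 0.23), -0.12 in Q (interval -0.69 to 0.45) and -0.54 in R (interval -1.19 to 0.11). The R interval takes in a difference as large as that of Slc22a2, in the other direction.

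On the urine-facing side, Slc22a12, which encodes the urate carrier URAT1, had 1492, 1486, 1447, 1381 and 1429 CPM in male WT and 750, 603, 775, 545 and 723 CPM in female WT. The lowest of all male libraries, 1381 CPM, was well above the highest of all female libraries, 775 CPM. The log2 fold change in WT was 1.09 (SE 0.11, interval 0.86 to 1.32, adjusted p = 8.04e-09), a 2.13-fold difference. It was 1.35 in Q (interval 1.12 to 1.58, adjusted p = 7.33e-11) and 1.29 in R (interval 1.01 to 1.56, adjusted p = 1.64e-08). Slc22a12 and Slc22a2 kept nearly the same ratio in both sexes: per kilobase Slc22a12 stood at 4.71 ± 0.34 times Slc22a2 in males and 4.39 ± 0.52 times in females, with overlapping ranges.

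The OCTN genes did not pass in any sex contrast. Slc22a5, whose product OCTN2 recovers carnitine, had 273, 242, 242, 223 and 276 CPM in male WT and 259, 329, 296, 262 and 231 CPM in female WT. Slc22a4, whose product OCTN1 carries ergothioneine, had 61.0, 48.3, 67.3, 62.8 and 53.9 CPM in male WT and 50.6, 63.9, 56.6, 77.3 and 66.2 CPM in female WT. The sexes overlapped for both genes in WT. In R the male libraries of Slc22a5, at 238.8 to 249.1 CPM, all lay below the 3 female libraries, at 256.9 to 292.5 CPM. For Slc22a5 the log2 fold change was -0.13 in WT (interval -0.38 to 0.11), -0.22 in Q (interval -0.46 to 0.02) and -0.15 in R (interval -0.43 to 0.13). For Slc22a4 it was -0.10 in WT (interval -0.34 to 0.13), 0.09 in Q (interval -0.15 to 0.32) and -0.25 in R (interval -0.52 to 0.02). A difference of 1.5-fold in either direction lies outside all 6 intervals.

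Of the members in the rodent-expanded group, Slc22a30 showed the widest sex difference of all 9 members and Slc22a19 a difference in the other direction. Slc22a30 had 235, 186, 211, 208 and 193 CPM in male WT and 11.4, 7.77, 25.2, 10.8 and 10.2 CPM in female WT. Male and female libraries were far apart, and even the lowest female library held 166 counts of the gene, so the female level was low but measured. The difference was 15.8-fold in WT, a log2 fold change of 3.98 (SE 0.27, interval 3.43 to 4.54, adjusted p = 9.75e-12). It was 19.9-fold in Q, a log2 fold change of 4.31 (interval 3.75 to 4.88, adjusted p = 1.72e-12). It was 18.04-fold in R, a log2 fold change of 4.17 (interval 3.47 to 4.87, adjusted p = 5.41e-10).

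Slc22a19, the gene of OAT5, had 108, 124, 119, 80.9 and 74.3 CPM in male WT and 245, 221, 411, 183 and 197 CPM in female WT. Here every female library, from 164 CPM upward, was above every male library, which reached 133 CPM. Females were 2.48-fold higher in WT, a log2 fold change of -1.31 for males against females (SE 0.21, interval -1.76 to -0.87, adjusted p = 4.93e-05). The log2 fold change was -1.33 in Q (interval -1.77 to -0.88, adjusted p = 3e-05) and -1.45 in R (interval -1.94 to -0.95, adjusted p = 7.01e-05). Per kilobase, Slc22a30 stood at 4.08 ± 0.85 times Slc22a19 in males and at 0.0858 ± 0.0175 times in females.

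**Figure D3:**
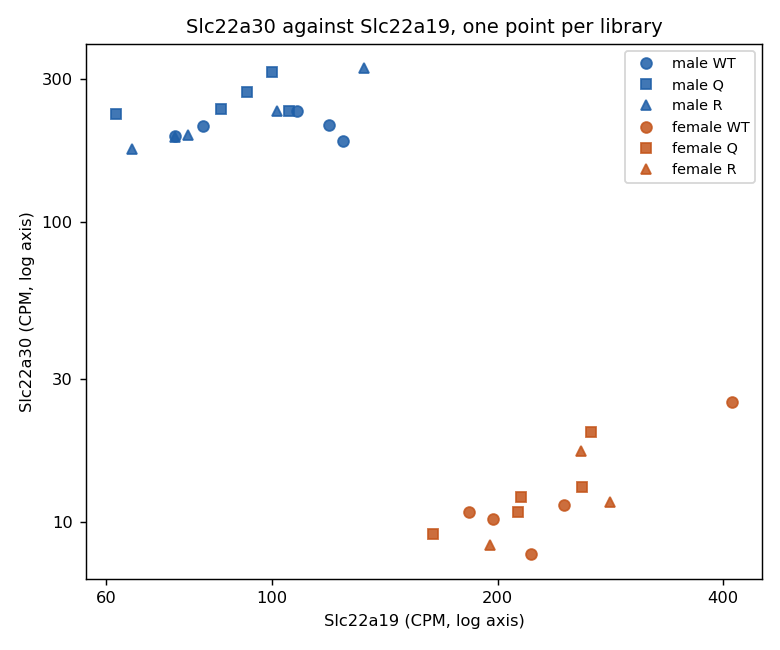
Slc22a30 against Slc22a19 in CPM (both axes logarithmic), one point per library, coloured by sex and shaped by genotype. Males lie at 62.0 to 133 CPM of Slc22a19 and 175 to 325 CPM of Slc22a30, females at 164 to 411 CPM and 7.77 to 25.2 CPM.

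Between Slc22a19 and Slc22a30 on chromosome 19 lie 4 further transporter genes, and the called sex differences among them were not all in the same direction. Slc22a28, the near copy of Slc22a30, was higher in males with 192 ± 14.2 CPM against 25.1 ± 7.11 CPM in WT (n = 5 and 5), a log2 fold change of 2.94 in WT, 3.16 in Q and 3.59 in R (largest adjusted p = 6.28e-14). Slc22a29, which lies between those genes, was higher in females with 57.5 ± 7.39 CPM against 4.11 ± 1.15 CPM in WT, a log2 fold change of -3.80 in WT, -4.35 in Q and -4.10 in R (largest adjusted p = 8.47e-16). Slc22a27 was also higher in females, with log2 fold changes of -3.43, -3.69 and -2.81, at levels of 3.24 ± 0.51 CPM in female WT. Slc22a26 did not pass, with -0.69, -0.54 and -0.10. In the order of the chromosome, the 8 neighbouring genes therefore ran female-high, not called, female-high, male-high, female-high, male-high, weakly female-high and male-high.

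Some of these genes are hard to count apart. Of all stretches of 50 bases in the GENCODE transcripts of Slc22a30, 34% also occur in another Slc22 gene, chiefly Slc22a28, and of those of 100 bases 21.1% do. For Slc22a28 the shares are 53.9% and 37%, and for Slc22a5 they are 26.2% and 12.9%, shared chiefly with Slc22a21. For Slc22a27 they are 29.9% and 7.31% and for Slc22a29 28.7% and 7.51%, shared chiefly with each other. The share was 0 at both lengths for Slc22a6, Slc22a7, Slc22a8 and Slc22a12 and at most 4.15% for Slc22a2, Slc22a4 and Slc22a19. Fragments that map to several places were not counted, so the levels of Slc22a30, Slc22a28, Slc22a27, Slc22a29 and Slc22a5 are uncertain and rest on the parts of the transcripts that differ. Levels per kb divide by the whole exon length. Those of Slc22a30 and Slc22a5, their places in the order of members and the ratio of Slc22a30 to Slc22a19 can therefore be too low.

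**Figure D4:**
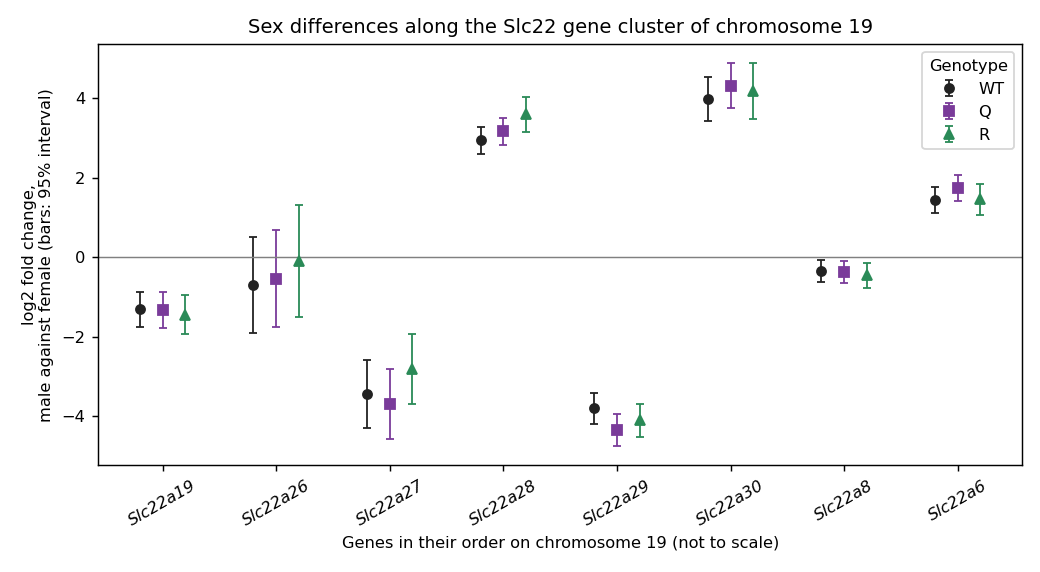
Log2 fold change of males against females (vertical axis, bars for the 95% interval) for the 8 adjacent Slc22 genes of chromosome 19 in their order, not to scale, in WT, Q and R. Slc22a28 and Slc22a30 lie above 2.9, Slc22a27 and Slc22a29 lie below -2.8, and Slc22a6 lies between 1.44 and 1.74.

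Per kilobase of exon, Slc22a12 had the highest mean of the members in all 6 groups, at 639 ± 20.04 CPM per kb in male WT and 300 ± 44.2 CPM per kb in female WT. In male WT Slc22a6 came next (268 ± 19.4), followed by Slc22a2 (140 ± 12.5), Slc22a8 (115 ± 10.8), Slc22a7 (115 ± 40.5), Slc22a5 (81.8 ± 7.33), Slc22a30 (61.4 ± 5.58), Slc22a4 (22.97 ± 2.95) and Slc22a19 (18.7 ± 4.16). Neighbours from Slc22a2 down to Slc22a5 overlapped, as did Slc22a4 and Slc22a19. In female WT the order after Slc22a12 was Slc22a8 (146 ± 9.18), Slc22a7 (146 ± 50.5), Slc22a6 (98.6 ± 22.1), Slc22a5 (89.7 ± 12.2), Slc22a2 (70.2 ± 16.7), Slc22a19 (46.3 ± 16.9), Slc22a4 (24.7 ± 3.96) and Slc22a30 (3.88 ± 2.05). Neighbours from Slc22a8 down to Slc22a19 overlapped, and in female Q the libraries of Slc22a12 and Slc22a7 overlapped as well. Slc22a30 thus moved from the seventh place in male WT to the last in female WT. The 9 members together summed to 1463 ± 72.1 CPM per kb in male WT and 925 ± 142 CPM per kb in female WT, and Slc22a12 alone made up 43.8% and 32.5% of that sum.

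The Aqp3 forms gave no called difference in any member. In the 9 contrasts between genotypes and the 3 tests of whether a genotype difference depends on sex, 0 of 9 members and 0% of the 17573 genes passed in edgeR, and DESeq2 called 0 members and at most 3 genes per contrast. At an unadjusted p under 0.05, edgeR gave 235 to 897 genes per contrast. In the contrasts where no member reached that level, it was reached by 2.13%, 1.92% and 1.34% of genes for R against WT in males, in females and over both, by 2.94% for Q against WT in females and by 4.1% for Q against R in males. In the tests of a dependence on sex it was reached by 3.11% for Q against WT, 2.82% for R against WT and 3.18% for Q against R, with 0 members each time. Genotype log2 fold changes of the 9 members ran from -0.24 to 0.32 for Q against WT in males, from -0.17 to 0.10 in females, from -0.17 to 0.12 for R against WT in males and from -0.10 to 0.21 in females. The widest limits of their intervals were -0.72 and 0.89 in these 4 contrasts, so a doubling lies outside all of them. For Q against R the log2 fold changes ran from -0.20 to 0.47 in males and from -0.37 to 0.09 in females, and the widest limit, 1.04, was that of Slc22a7 in males.

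**Figure D5:**
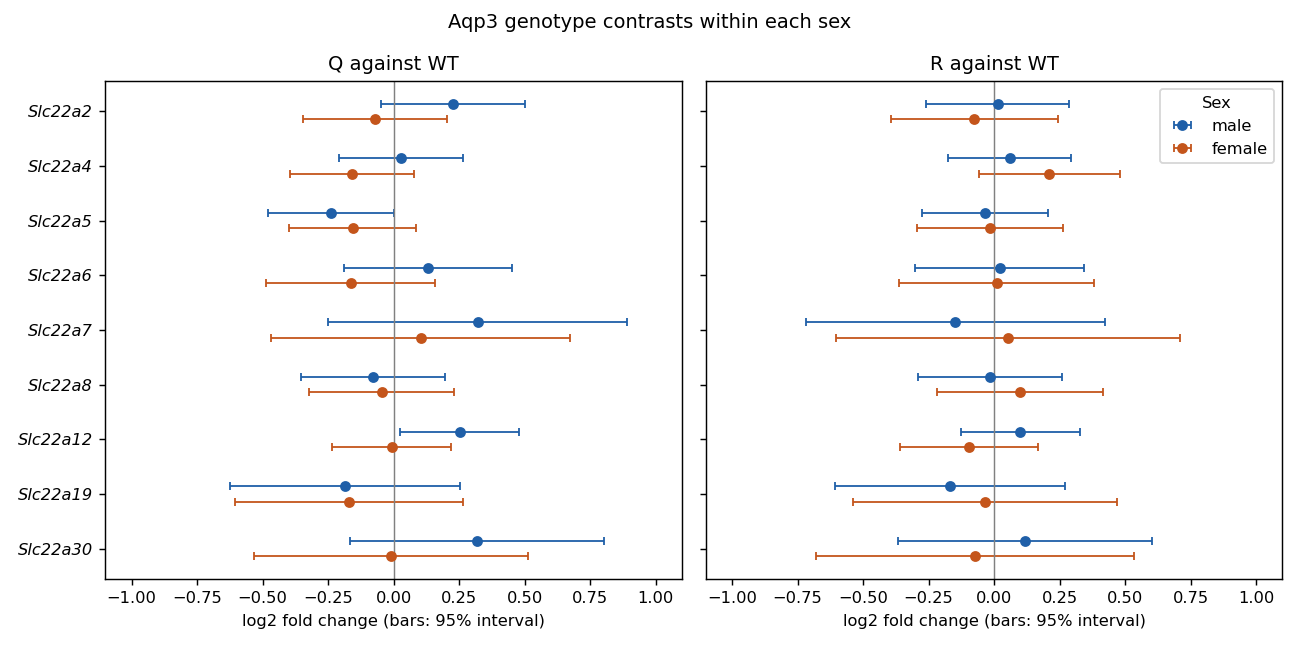
Log2 fold change (horizontal axes, bars for the 95% interval) of Q against WT and of R against WT for each member, in males (blue) and females (orange). All points lie between -0.24 and 0.32, and no member was called.

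Only 3 members reached an unadjusted p under 0.05 in a genotype contrast. For Slc22a12, male Q libraries had 1527, 1661, 1663, 2169 and 1593 CPM, each above the highest male WT value of 1492 CPM, and the log2 fold change was 0.25 (interval 0.03 to 0.48, unadjusted p = 0.0284, adjusted p = 0.917). At that unadjusted level 5.1% of all genes passed in this contrast, and 0.74% had groups that did not overlap. Without male Q replicate 4 the value was 0.15. For Slc22a5 the male Q libraries had 231, 237, 210, 138 and 248 CPM, and the difference from male WT was -0.24 (unadjusted p = 0.0486, adjusted p = 0.917). Its lowest value was that of male Q replicate 4, and without that library the difference was -0.12. Over both sexes the Slc22a5 difference of Q from WT was -0.20 (unadjusted p = 0.0225, adjusted p = 0.92), where 4.72% of genes reached that level. For Slc22a4, female Q libraries had 56.2, 52.5, 50.8, 68.1 and 54.3 CPM against 59.1, 82.0 and 77.4 CPM in female R, a log2 fold change of -0.37 (unadjusted p = 0.00774, adjusted p = 0.998). The groups overlapped, 3.03% of all genes reached an unadjusted p under 0.05 there, and over both sexes the difference of Q from R was -0.20 (unadjusted p = 0.0267, adjusted p = 0.986), where 3.93% did.

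The sex differences themselves did not differ detectably between genotypes. The change in the male-to-female log2 fold change from WT to Q was 0.33 for Slc22a30 (adjusted p = 0.999), 0.30 for Slc22a2, 0.29 for Slc22a6, 0.26 for Slc22a12 and -0.01 for Slc22a19. Over all members and the 3 such tests, intervals reached from -1.07 to 1.29, both limits being those of Slc22a7.

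Several sets of kidney cell markers differed between the sexes, and the wider proximal tubule list was mixed. Of its 10 markers, 2 were called higher and 1 lower in males in WT, 2 and 2 in Q, and 1 and 4 in R. Their median log2 fold change was -0.01 in WT, -0.06 in Q and -0.19 in R. The 5 markers of the S3 segment, the last stretch of the proximal tubule, summed to 5504 to 7139 CPM in males and 2663 to 4122 CPM in females, and 4 of 5, among them Slc5a8 of the urate list, were called higher in males in WT, 5 of 5 in Q and 3 of 5 in R. The 4 markers of the S1 and S2 segments summed to 6216 to 7925 CPM in males and 4116 to 6306 CPM in females, with overlap, but the median log2 fold change of the single markers was 0.02 in WT, -0.22 in Q and -0.23 in R. Of the 4, 1 was called higher in males in WT, and 1 higher and 1 lower in Q and in R. The 5 hepatocyte markers summed to 76.3 to 461 CPM in males and 57.2 to 111 CPM in females, none was at 0 in any group, and of the 4 tested in WT 1 was higher and 1 lower in males. The 4 markers of the thick ascending limb summed to 2667 to 4501 CPM in males and 4216 to 5868 CPM in females, with overlap. Of these markers, 0 were called in WT, 1 was higher and 2 lower in males in Q, and 0 and 2 in R. Of the 4 podocyte markers, which summed to 160.0 to 243 CPM in males and 217 to 309 CPM in females, 4 were called lower in males in WT and in Q and 3 in R. Markers called lower in males in WT, Q and R numbered 2, 2 and 1 of 4 for intercalated cells, 1, 1 and 2 of 3 for the distal convoluted tubule and 2, 1 and 0 of 4 for stroma, with none higher. The same counts were 2, 0 and 0 of 4 for endothelium, 1, 0 and 1 of 4 for macrophages and 1, 1 and 1 of 3 tested for principal cells, again with none higher. Of the 4 urothelium and 4 adipocyte markers, 0 were called in any sex contrast. Over all tested genes, 8.31% were called lower in males in WT, 11.2% in Q and 7.01% in R, and 8.22%, 11.9% and 7.07% higher. The lists are short, so a single called marker says little about a cell type. The part of these markers in the sex differences of the members was not tested.

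Without female WT replicate 2, the library with little Xist, the same 5 members passed in WT, and 0 members passed in the genotype contrasts that use this group. The log2 fold changes were then 0.94 for Slc22a2, 1.34 for Slc22a6, 1.06 for Slc22a12, -1.35 for Slc22a19 and 3.85 for Slc22a30. Without both libraries of low mitochondrial share, these 5 members passed in all 3 genotypes. In Q, the genotype of those libraries, the values were then 1.22, 1.71, 1.28, -1.15 and 4.56 in the same order.

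Some genes that work with the transporters also differed between the sexes. Each list's counts are to be read beside the share of all genes called, 16.5% in WT, 23.1% in Q and 14.1% in R. The lists, too, were chosen with earlier results of these data known. Of the other 14 Slc22 genes tested, 3 were higher and 5 lower in males in WT, 3 and 5 in Q, and 2 and 4 in R. Of these, Slc22a22, a prostaglandin carrier, was higher in males with log2 fold changes of 1.58, 1.69 and 1.72. Of 11 genes for the exit of organic ions into urine, 4 were higher and 4 lower in males in WT and in Q, and 3 and 4 in R. Slc17a1 and Slc17a3, sodium phosphate transporter relatives that carry urate and other anions, were higher in males in WT by 0.97 and 1.14 on the log2 scale. Slc47a1, which encodes the cation exporter MATE1, was higher by 0.75. Slc17a2 was lower in males, with a log2 fold change of -5.51, at 15.6 ± 4.60 CPM in female WT and 0.343 ± 0.131 CPM in male WT.

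Among the other lists, some held no larger a share of called genes than the whole table. Of 9 genes that supply dicarboxylates for anion exchange, 1 was called in WT, the citrate carrier Slc13a2 with a log2 fold change of -0.57, while 3 were higher in males in Q and 0 passed in R. The counts in WT and R are below the shares over all genes, 16.5% and 14.1%. Of 6 tested urate genes, 2 were higher in males in WT, with the monocarboxylate carrier Slc5a8 at 1.42 and Slc16a9 at 0.56. In Q 2 were higher and 1 lower, and in R 1 and 1. Of 7 tested genes of carnitine use, 3 were higher in males in WT, 4 in Q and 3 in R, with 0, 1 and 1 lower. Crot, a peroxisomal carnitine acyltransferase, had the largest named difference among them at 1.34 in WT. Of 16 transcription factors and hormone receptors, 5 were higher and 1 lower in males in WT, 7 and 1 in Q, and 1 and 1 in R, the last below the 14.1% of all genes. Prlr, the prolactin receptor, was the one lower in males, at 22.2 ± 12.4 CPM in male WT and 215 ± 30.7 CPM in female WT, with log2 fold changes of -3.28, -3.87 and -3.12 (largest adjusted p = 3.42e-05). Esr1, an oestrogen receptor, was higher in males with 0.995, 1.24 and 1.098, and Hnf4a, a transcription factor of proximal tubule cells, was higher by 0.39 in WT. In the genotype contrasts 0 genes of these lists were called.

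Within groups, some members varied together from library to library. Deviations of log2 CPM from the group mean over the 28 libraries gave 36 pairs of members, 24 with a positive Pearson r and 9 over 0.5. The highest was Slc22a2 with Slc22a7 (r = 0.80, Spearman's rho 0.80, r = 0.74 without the 2 farthest libraries). Slc22a19 and Slc22a30, which lie on opposite sides of the sex difference, also varied together within groups (r = 0.74, rho 0.72, r = 0.57 without the 2 farthest). The lowest were Slc22a4 with Slc22a12 (r = -0.45, rho -0.38) and Slc22a8 with Slc22a19 (r = -0.44, rho -0.43). These values are descriptions, since all points share library depth and composition.

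By the same measure, the gene nearest to each member among 12885 candidates was found. For Slc22a30 it was Ces2c, a carboxylesterase gene (r = 0.93), and then Ces2b (r = 0.87), which was also the second gene for Slc22a19 (r = 0.82) after Nceh1 (r = 0.85). For Slc22a2 it was Slc17a3 (r = 0.91) and then Serpinf2 (r = 0.88). For Slc22a8 it was Prlr (r = 0.79) and then Susd2 (r = 0.74). Slc22a6 lay nearest to the organic anion transporter gene Slco3a1 (r = 0.86) and Tmem144 (r = 0.83), Slc22a7 to Pdk3 (r = 0.87) and Vwa1 (r = 0.85), and Slc22a12 to Tmem254a (r = 0.80) and Cndp2 (r = 0.79). Slc22a4 lay nearest to Hoga1 (r = 0.72) and Spata17 (r = 0.72). Slc22a5 lay nearest to Rnf19a (r = 0.87, or 0.73 without the libraries of low mitochondrial share) and Elf2 (r = 0.84, or 0.71). These genes are the highest of 12885 correlations over 28 libraries, so a high r comes in part from the choice. How high an r unrelated genes would reach was not tested, and the names are descriptions, above all those with the lowest r.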

How the data were processed

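PolyA RNA in 28 kidney libraries, grouped by sex and Aqp3 genotype into 6 groups, was analysed. The values are whole-number counts of fragments over exons per gene, deposited by the authors without scaling. Per the file headers they were made with featureCounts 2.0.1 on the Ensembl 107 annotation of GRCm39, with no option for strand or for fragments that map to several places. The submitters' processing notes add SAMtools 1.6, DESeq2 1.38.3 and Trim Galore 0.6.7, and the aligner is not given in the sources used here. Libraries held 14825417 to 21403804 counts, and 0.669% of counts lay in genes without a symbol.

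In R 4.3.3 with edgeR 4.0.16, filterByExpr kept 17573 genes with 99.91% of counts, libraries were scaled by TMM, and 1 model with 6 group means was fitted to all libraries (22 residual degrees of freedom). Robust quasi-likelihood tests covered 15 contrasts: 3 of sex, 9 of genotype and 3 of the difference between sexes in a genotype effect. Calls needed an adjusted p (Benjamini-Hochberg, all tested genes) below 0.05. Standard errors (SE) were derived from log2 fold change and F statistic, and 95% intervals use t with 22 degrees of freedom. Levels are CPM as mean ± SD over libraries, and levels per kb divide by exon lengths of GENCODE release 21 (GRCm38), matched by gene identifier. Deviations used log2 CPM with a prior count of 2. The code was tested on simulated data.

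Named genes are all 9 members, genotype values at an unadjusted p under 0.05, the 2 genes nearest each member (mean of at least 1 CPM), up to 4 genes per list with the smallest p in the WT sex contrast, and promoters of members called in one direction in all sex contrasts. The members and lists were chosen with earlier results of these data known. Alternatives were a replicate block, DESeq2 size factors, omitting the low-count filter, DESeq2 1.42.0 (Wald test), leaving out each library, and leaving out male Q replicate 4 with female Q replicate 5. Promoters came from RefSeq on GRCm38.p6. 1 gene of the family is not reported here.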

Additional observations from a re-analysis of the deposited data

Results flagged for a closer look

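In 45 groups of 5 libraries, 1 for each member and each group but female R with its 3 libraries, 4 held a library that lay far from the others by Dixon's criterion for 5 values (0.71). Chance gives about 1 such group in 20. Male Q replicate 4 had 532.533 CPM of Slc22a2, against 356 to 393 CPM in the other male Q libraries, and 2169.078 CPM of Slc22a12, against 1527 to 1663 CPM. This is the library with 7.74% of counts from mitochondrial genes. Female WT replicate 3 had 410.715 CPM of Slc22a19, against 183 to 245 CPM in the other female WT libraries, and 25.153 CPM of Slc22a30, against 7.77 to 11.4 CPM. The same library also had the highest female WT values of Slc22a2 (245 CPM), Slc22a6 (479 CPM), Slc22a7 (486 CPM), Slc22a8 (609 CPM) and Slc22a12 (775 CPM), but not of Slc22a4 or Slc22a5.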

How the results depend on the processing

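Slc22a2, Slc22a6, Slc22a12, Slc22a19 and Slc22a30 kept their direction and their call in all 3 sex contrasts under every alternative run. The number of members called stayed at 5 or 6 in each sex contrast and at 0 in each genotype contrast. Over all genes, the sex contrast in R had 2474 called genes, and 4171 without male Q replicate 4 and female Q replicate 5. In WT, 1445 genes were called higher and 1461 lower in males, and 2333 and 2009 without those libraries. Both are Q libraries, but all groups share 1 fit with its scaling and its estimate of the spread. The shares of all genes called thus depend on them. When single libraries were left out, the R count was 1608 to 2694. The low counts came without female R replicate 1 (1608) or 2 (1613), which leaves 2 libraries in that group. For Q against WT in males the count of 0 became 3 with the DESeq2 Wald test and 0 to 2 when single libraries were left out. DESeq2 also called 1 gene for Q against WT in females, 1 over both sexes, and 1 for Q against R in males, where the edgeR test without the filter on low counts called 1 and leaving out single libraries gave 0 to 2. The cause was not tested. Slc22a7 ranged from -0.31 to 0.12 in the Q sex contrast when single libraries were left out, changed sign without female Q replicate 5, and did not pass in any of these fits. The Slc22a8 calls in Q and R were lost in 7 of 10 and 5 of 8 fits that left out a library.

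Correlations of deviations were compared between libraries that share a replicate number and other libraries. The numbers come from the sample titles, and the labels do not say that they mark a batch. Of 65 pairs with the same number in different groups, 5 had a correlation of deviations over 0.1. The median was 0.006 against -0.002 for other pairs, and 9 of 28 libraries correlated best with their own number. How many would do so by chance was not worked out, so the check cannot decide on a pairing or a batch. With the replicate block, 1 gene was called for Q against WT in males, the members called were 5 in each sex contrast, and the adjusted p of Slc22a8 was 0.0575 in Q and 0.0647 in R.

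With 3 libraries in female R and 5 elsewhere, differences of small size in Slc22a7 could not be resolved at this spread, and no technical replicate separates library error from animal error.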
